A study of Rattus norvegicus with 9 samples.

Results

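Transcripts of 10 genes around the Hippo pathway were followed in 9 RNA-seq libraries of rat neural stem cells (NSCs): the DNA-binding factors Tead1, Tead2, Tead3 and Tead4, the coactivators Yap1 and Wwtr1, the CCN genes Ccn1, Ccn2 and Ccn3, and Amotl2. The count table held 23953 genes, and all 10 were found in it by symbol. They were selected on a list of names drawn up with the expression levels in these same libraries already known, and no threshold was used, so their differences between groups are given as a description. Which of them passed a threshold is listed for completeness and is no independent evidence of a difference. The NSCs came from spinal cords of neonatal rats, per the study's methods, and every group was kept in differentiation medium. The Con group (n = 3) received the medium alone, the Exo group (n = 3) also received exosomes of bone marrow mesenchymal stem cells (BMSCs), and the pLV-Exo-Wnt5a group (n = 3) received exosomes of BMSCs that overexpressed Wnt5a. Overexpression of Wnt5a was thus made in the exosome donors rather than in the NSCs. Per the study's methods, the donors of the Exo group carried an empty lentiviral vector as the control of that construct. The study's methods mention replicates of each NSC group for the staining and protein assays, but the sources used here do not say whether the libraries of a group came from separate animals or cultures, so the errors measure the spread between these libraries, which may be technical.

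Hippo signaling is a kinase cascade that holds the coactivators YAP (Yap1) and TAZ (Wwtr1) out of the nucleus by phosphorylation. Neither coactivator binds DNA on its own. In the nucleus they bind TEAD factors and raise transcription of genes such as Ccn1, Ccn2 and Amotl2, whose transcripts are widely used as readouts of YAP and TAZ activity. Since the control acts on YAP and TAZ protein, transcript levels of Yap1 and Wwtr1 do not measure it. In the nervous system, YAP and TEAD factors are known for their part in the upkeep of neural progenitors, and Wnt5a has been linked to YAP and TAZ activity in other cells. In the annotation columns deposited with the counts, 7 of the 10 genes belonged to the KEGG Hippo signaling pathway, which took in 154 genes of the table, while Ccn1, Ccn3 and Amotl2 were outside it.

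The promoters of the 3 readout genes are shown because TEAD factors recognise the letters GGAATG, or CATTCC on the other strand. A promoter was here the 300 bases from 250 before to 50 after the start of the gene, from RefSeq on the rat build GRCr8, and capitals mark each occurrence of these letters on either strand. The windows are chr1:22624565-22624864 (minus strand) for Ccn2, chr2:237225640-237225939 (minus strand) for Ccn1 and chr8:112182376-112182675 (plus strand) for Amotl2.
Ccn2: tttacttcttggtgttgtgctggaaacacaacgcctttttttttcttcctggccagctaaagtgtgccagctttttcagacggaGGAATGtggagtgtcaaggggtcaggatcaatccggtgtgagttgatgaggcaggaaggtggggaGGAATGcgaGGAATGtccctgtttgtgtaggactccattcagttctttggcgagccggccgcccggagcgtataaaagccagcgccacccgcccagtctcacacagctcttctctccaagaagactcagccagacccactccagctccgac
Ccn1: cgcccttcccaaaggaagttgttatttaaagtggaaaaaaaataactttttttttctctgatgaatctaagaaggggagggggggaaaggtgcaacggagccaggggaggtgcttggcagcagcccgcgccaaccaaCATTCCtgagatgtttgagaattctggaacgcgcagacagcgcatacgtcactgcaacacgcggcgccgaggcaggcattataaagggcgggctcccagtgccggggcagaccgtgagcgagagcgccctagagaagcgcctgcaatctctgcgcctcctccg
Amotl2: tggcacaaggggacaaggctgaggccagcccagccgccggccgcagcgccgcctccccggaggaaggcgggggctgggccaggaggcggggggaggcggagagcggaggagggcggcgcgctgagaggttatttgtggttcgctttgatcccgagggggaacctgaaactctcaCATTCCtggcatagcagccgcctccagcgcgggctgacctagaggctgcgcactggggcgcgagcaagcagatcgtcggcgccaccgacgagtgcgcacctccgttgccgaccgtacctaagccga
Ccn2 held the letters 3 times, 166, 101 and 92 bases before the start. Ccn1 held them once, 113 bases before the start, and Amotl2 once, 76 bases before it. Of the 33469 rat promoters of this length, 14.2% held the letters at least once and 0.0956% held them 3 or more times. Promoters of 6 of the 10 genes were matched by symbol, and the letters stood in 4 of them, the fourth being Yap1 (chr8:13451388-13451687, minus strand), with 1 occurrence 116 bases before the start. They were not in the windows of Wwtr1 (chr2:143916892-143917191, minus strand) and Tead3 (chr20:6413128-6413427, minus strand). A match of letters is a description of the sequence and not evidence of binding, and the other genes were Tead1, Tead2, Tead4 and Ccn3.

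The libraries held between 32765138 and 40427647 counts, and 3 counts corresponded to 0.0742 to 0.0916 CPM, the unit used below for the count of a gene scaled to the normalised size of its library. The samples were labelled as rat, but the genes of the table were named by mouse symbols and numbered as in mouse, and the handling of reads shared by similar genes such as the Tead paralogs was not described, so the split of counts among paralogs is uncertain to that extent. The TMM normalisation factor of Con replicate 1 was 0.950 against 0.996 to 1.02 in the other libraries. Con replicate 1 and pLV-Exo-Wnt5a replicate 3 were each the highest or the lowest library of their group for 10 of the 10 genes. The same held for 8 of 10 genes in Con replicate 3 and in Exo replicate 1. For each gene, all but the middle library of a group of 3 count so, and the share over all genes was not taken. The sample labels did not separate the libraries into batches, so a batch effect could not be checked. Because the RNA was taken from whole cultures, fewer cells of a type and less RNA per cell cannot be told apart.

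The plainest differences were in Tead2 and Ccn3. In Exo, Tead2 stood at 0.621 of its Con level and Ccn3 at 1.81 times its Con level, with no overlap of the groups in either gene. In pLV-Exo-Wnt5a, Tead2 lay between Exo and Con, and Ccn3 was 1.71 times its Con level. The readout genes Ccn1, Ccn2 and Amotl2 and the coactivators Yap1 and Wwtr1 differed by at most 0.32 on the log2 scale in any comparison of all libraries. For Ccn2, the least counted gene, the value for pLV-Exo-Wnt5a against Con was 0.50 without Con replicate 1 and -0.19 without Con replicate 2. Each of the 10 genes passed the filter on low counts in each comparison. By edgeR's quasi-likelihood test on the 6 libraries of each comparison, with Benjamini-Hochberg adjustment over all genes tested (Q under 0.05), 0 of 10 passed in each of the 3 comparisons, where the share of all genes tested that passed was 0.00664% between Exo and Con, 0.436% between pLV-Exo-Wnt5a and Exo, and 0.0862% between pLV-Exo-Wnt5a and Con.

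Counts of these genes past a threshold are a description too, since the genes were chosen with their levels known, and nothing is read from them. At an unadjusted p under 0.05 in edgeR, 3 of 10 passed for Exo against Con (Tead2, Tead3 and Ccn3), where 14.9% of all genes did. In the same way 3 of 10 passed between pLV-Exo-Wnt5a and Exo (Tead2, Tead3 and Ccn1), where 12% did, and 2 of 10 between pLV-Exo-Wnt5a and Con (Tead2 and Ccn3), where 8.35% did. DESeq2 at an adjusted p under 0.05 called 2 of 10 for Exo against Con (Tead2 and Ccn3, 1.37% of all genes), 2 of 10 for pLV-Exo-Wnt5a against Exo (Tead2 and Tead3, 2.82%) and 1 of 10 for pLV-Exo-Wnt5a against Con (Ccn3, 0.524%). With edgeR, Tead2 and Ccn3 also passed for Exo against Con when Con replicate 1 or Con replicate 3 was left out. The share of all genes that passed in those fits was not taken. The groups did not overlap in 1 gene that was higher and 2 that were lower in Exo than in Con (10.8% and 12.4% of all genes), in 3 that were higher and 0 that were lower in pLV-Exo-Wnt5a than in Exo (7.9% and 8.57%), and in 1 higher and 1 lower in pLV-Exo-Wnt5a than in Con (7.52% and 9.09%). The comparisons share libraries, so they are not independent of each other. The median log2 fold change (log2FC) of the 10 genes was -0.02, 0.08 and 0.05 in the order given, against 0.00 over all genes tested in each comparison.

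**Figure D1:**
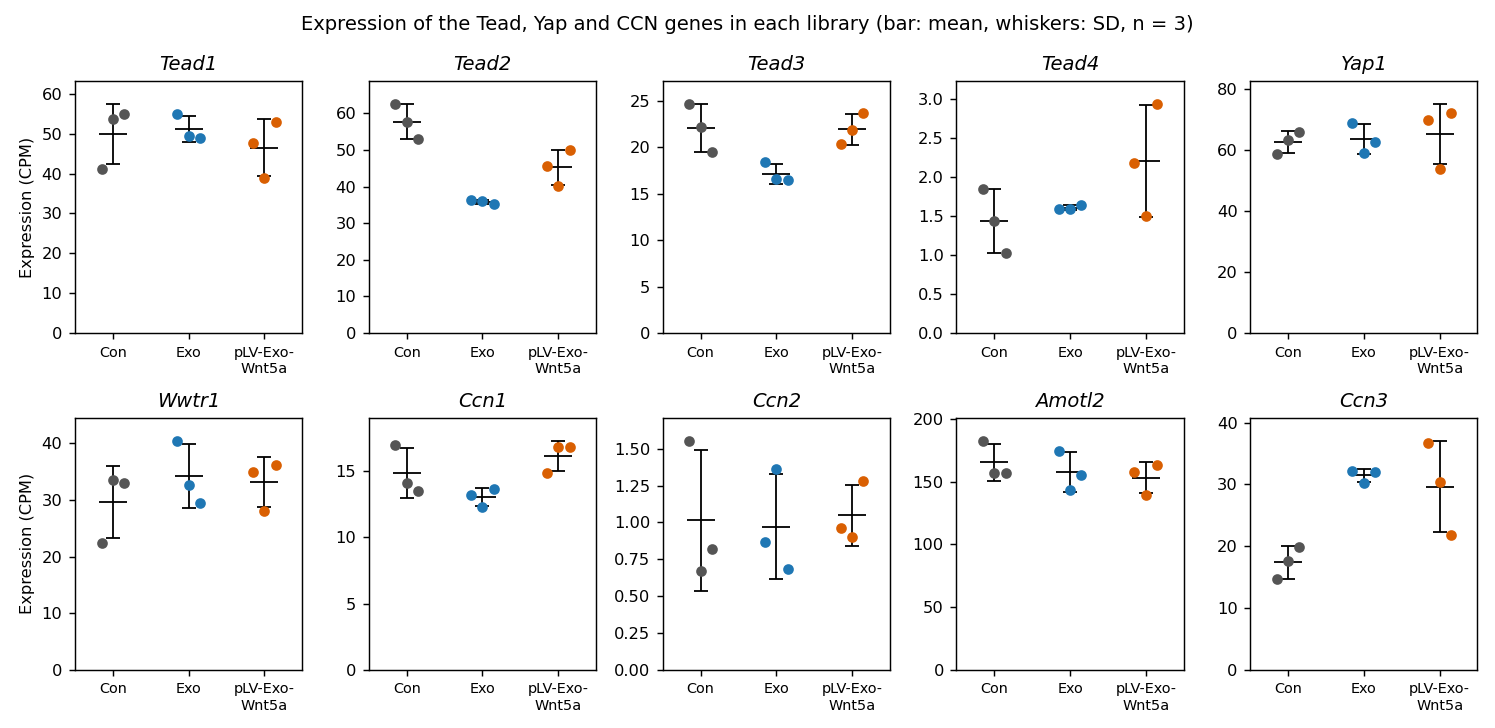
Expression of the 10 genes in each library, in CPM on a linear axis that starts at 0, by group. Points are libraries, the bar is the group mean and the whiskers are the SD (n = 3). The Exo points of Tead2 lie at 35.2 to 36.4 CPM, under every Con point, and the Con points of Ccn3 lie under every point of the other groups.

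Among the DNA-binding factors, Tead2 differed most clearly between the groups. Tead2 (NCBI gene 21677) encodes the paralog known for its expression in the early neural tube. It was measured at 62.6, 57.6 and 53.1 CPM in the Con libraries, at 36.4, 36.0 and 35.2 CPM in the Exo libraries and at 45.7, 40.2 and 49.9 CPM in the pLV-Exo-Wnt5a libraries. The order of the group means was thus Con (57.8 ± 4.76 CPM, SD, n = 3), pLV-Exo-Wnt5a (45.3 ± 4.84 CPM) and Exo (35.9 ± 0.601 CPM), and no library of one group entered the range of another. Against Con, the log2FC was -0.69 (SE 0.09) in Exo and -0.35 (SE 0.11) in pLV-Exo-Wnt5a, and between pLV-Exo-Wnt5a and Exo it was 0.34 (SE 0.09). Without Con replicate 1, the highest library, the value for Exo against Con was -0.63.

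Tead3 (NCBI gene 21678), like Tead2, was lower in Exo than in both other groups. Its levels were 24.6, 22.1 and 19.5 CPM in Con, 18.4, 16.6 and 16.5 CPM in Exo and 20.3, 21.8 and 23.6 CPM in pLV-Exo-Wnt5a. All Exo libraries lay under the other 6, and the Con and pLV-Exo-Wnt5a libraries overlapped. The log2FC was -0.36 (SE 0.12) for Exo against Con and 0.36 (SE 0.10) between pLV-Exo-Wnt5a and Exo. Between pLV-Exo-Wnt5a and Con it was -0.01, with a 95% confidence interval of -0.30 to 0.27.

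Tead1 (NCBI gene 21676), a broadly expressed paralog, overlapped among all groups. Its levels were 41.3, 53.6 and 54.9 CPM in Con, 55.0, 49.5 and 49.0 CPM in Exo and 47.7, 38.8 and 53.0 CPM in pLV-Exo-Wnt5a. The group means of Tead1 ran from 46.5 ± 7.21 CPM in pLV-Exo-Wnt5a over 49.9 ± 7.53 CPM in Con to 51.2 ± 3.32 CPM in Exo, and neighbours in this order did not differ beyond their spread. The 95% interval of the log2FC against Con was -0.23 to 0.30 in Exo and -0.41 to 0.20 in pLV-Exo-Wnt5a, and between pLV-Exo-Wnt5a and Exo it was -0.37 to 0.11.

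Tead4 (NCBI gene 21679), known as a factor of the trophectoderm and of muscle precursors, was counted sparsely. The files held 70, 56 and 34 counts in Con, 62, 64 and 65 in Exo and 86, 55 and 121 in pLV-Exo-Wnt5a, or 1.44 ± 0.408, 1.60 ± 0.0314 and 2.20 ± 0.716 CPM as group means. The highest library was pLV-Exo-Wnt5a replicate 3, whose 121 counts had an exact 95% Poisson interval of 100.4 to 144.6, while replicate 2 of the same group had 55 counts with an interval of 41.4 to 71.6. These intervals cover counting error only. The groups overlapped in every comparison, and the interval of the log2FC for pLV-Exo-Wnt5a against Con reached from -0.11 to 1.33.

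The split of counts among the 4 Tead paralogs differed between the groups in the same libraries. Tead2 made up 48.0%, 42.7% and 41.3% of the summed Tead counts in Con, 32.7%, 34.7% and 34.4% in Exo and 39.4%, 39.3% and 38.5% in pLV-Exo-Wnt5a. Tead1 took 31.7%, 39.8% and 42.7% in Con, 49.4%, 47.8% and 47.9% in Exo and 41.2%, 37.9% and 41.0% in pLV-Exo-Wnt5a. The groups did not overlap in the Tead2 share, and in the Tead1 share Exo lay above the others. These shares are of counts with no correction for gene length, so they are compared between libraries only. In Tead2 counts per Tead1 count, Con held 1.52, 1.07 and 0.966, Exo 0.662, 0.727 and 0.719, and pLV-Exo-Wnt5a 0.958, 1.04 and 0.940. By that ratio the Exo libraries lay under the other 6, and the Con and pLV-Exo-Wnt5a libraries stood side by side apart from Con replicate 1. Tead3 held 16.8% ± 1.90, 16.2% ± 0.285 and 19.0% ± 2.01 of the Tead counts in Con, Exo and pLV-Exo-Wnt5a (SD, n = 3).

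**Figure D2:**
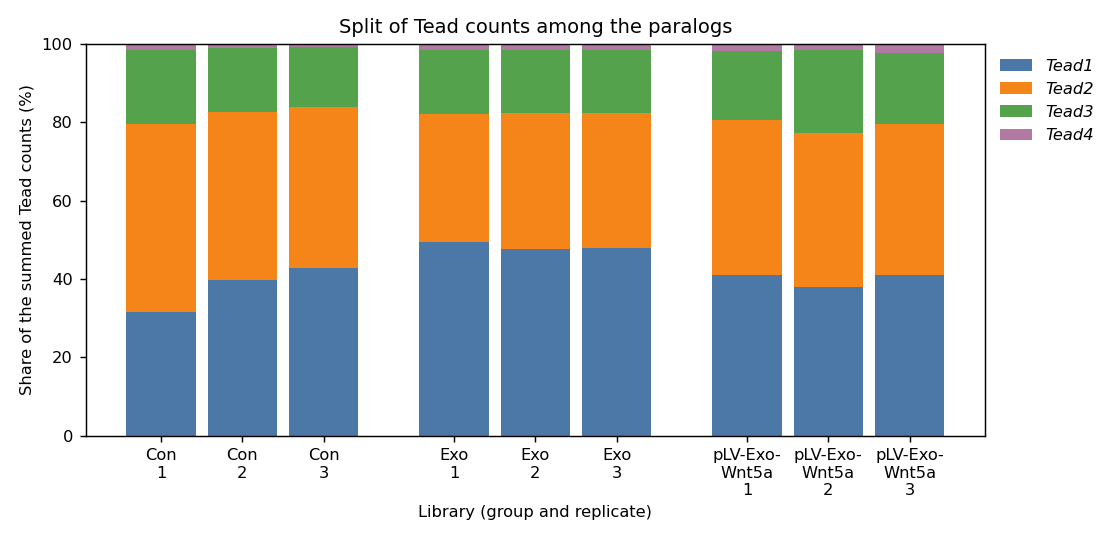
Share of the summed Tead counts taken by each paralog, in percent, with 1 stacked bar for each of the 9 libraries. The Tead2 segment spans 32.7% to 34.7% of the bar in Exo, 38.5% to 39.4% in pLV-Exo-Wnt5a and 41.3% to 48.0% in Con.

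Summed over the paralogs, Tead transcripts came to 130.3, 134.8 and 128.5 CPM in Con, 111.3, 103.7 and 102.3 CPM in Exo and 115.8, 102.3 and 129.5 CPM in pLV-Exo-Wnt5a. Exo lay under Con in all libraries, and pLV-Exo-Wnt5a reached from the lowest Exo value to the lower Con values.

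The coactivators overlapped among the groups. Yap1 (NCBI gene 22601), which encodes YAP, was measured at 58.6, 63.3 and 65.8 CPM in Con, 68.7, 59.0 and 62.6 CPM in Exo and 69.7, 53.7 and 71.9 CPM in pLV-Exo-Wnt5a. The widest 95% interval of its log2FC, for pLV-Exo-Wnt5a against Con, was -0.20 to 0.31. Wwtr1 (NCBI gene 97064), which encodes TAZ, stood at 22.4, 33.6 and 33.0 CPM in Con, 40.5, 32.6 and 29.5 CPM in Exo and 35.0, 28.1 and 36.3 CPM in pLV-Exo-Wnt5a. Its lowest value was Con replicate 1 and its highest Exo replicate 1. The log2FC of Wwtr1 was 0.21 for Exo against Con, with an interval of -0.17 to 0.59, and 0.03 when Con replicate 1 was left out. Yap1 took 68.1% ± 3.74 of the counts of both coactivators in Con, 65.1% ± 2.58 in Exo and 66.2% ± 0.482 in pLV-Exo-Wnt5a.

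The readout genes were measured at very different precision. Ccn1 (NCBI gene 16007), also called Cyr61, encodes a secreted matrix-associated protein. Its levels were 17.0, 14.1 and 13.5 CPM in Con, 13.2, 12.3 and 13.7 CPM in Exo and 14.8, 16.8 and 16.8 CPM in pLV-Exo-Wnt5a. All pLV-Exo-Wnt5a libraries lay above all Exo libraries, and both groups overlapped with Con. The log2FC of Ccn1 was 0.32 (SE 0.11) for pLV-Exo-Wnt5a against Exo, and its interval was -0.48 to 0.11 for Exo against Con and -0.19 to 0.43 for pLV-Exo-Wnt5a against Con.

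Ccn2 (NCBI gene 14219), also called Ctgf, encodes a matrix-associated growth factor and carried the 3 occurrences of the TEAD letters shown above. It was the least counted of the 10 genes. The files held 59, 26 and 27 counts in Con, 34, 55 and 27 in Exo and 38, 33 and 53 in pLV-Exo-Wnt5a, which gave 1.01 ± 0.476, 0.972 ± 0.354 and 1.05 ± 0.206 CPM. Each group thus held both high and low libraries. The exact Poisson interval was 17.0 to 38.1 for 26 counts and 44.9 to 76.1 for 59 counts, and these did not overlap, though counting error is only a part of the spread between libraries. The interval of the log2FC against Con was -1.01 to 0.89 in Exo and -0.83 to 0.92 in pLV-Exo-Wnt5a, and between pLV-Exo-Wnt5a and Exo it was -0.69 to 0.93.

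Amotl2 (NCBI gene 56332) encodes an angiomotin-like protein of cell junctions that binds YAP. It was the most deeply counted of the 10 genes, with up to 6935 counts in a library. The levels of Amotl2 were 182.9, 157.4 and 156.9 CPM in Con, 174.7, 143.3 and 155.3 CPM in Exo and 157.6, 139.7 and 163.0 CPM in pLV-Exo-Wnt5a, and the groups overlapped in every comparison. Against Con, the log2FC was -0.07 in Exo and -0.11 in pLV-Exo-Wnt5a, between pLV-Exo-Wnt5a and Exo it was -0.03, and the outermost bounds of the 3 intervals were -0.32 and 0.15.

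Ccn3 (NCBI gene 18133), also called Nov, is a CCN family member that is expressed in the nervous system and is not among the usual YAP readouts. It was measured at 14.6, 17.6 and 19.9 CPM in Con, 32.2, 30.3 and 32.0 CPM in Exo and 36.7, 30.4 and 21.9 CPM in pLV-Exo-Wnt5a. Every library with exosomes lay above every Con library. The Exo libraries lay close together (31.5 ± 1.06 CPM), while the pLV-Exo-Wnt5a libraries spread from near the Con range to above Exo (29.7 ± 7.43 CPM), and these groups overlapped. The log2FC of Ccn3 was 0.86 (SE 0.13) for Exo against Con and 0.77 (SE 0.18) for pLV-Exo-Wnt5a against Con. Between pLV-Exo-Wnt5a and Exo it was -0.08, with an interval of -0.41 to 0.25. Without pLV-Exo-Wnt5a replicate 3 the value against Con was 0.95, and without replicate 1 it was 0.59.

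Within the CCN genes, Ccn3 and Ccn1 did not run in parallel. Ccn3 counts per Ccn1 count were 0.862, 1.25 and 1.48 in Con, 2.44, 2.46 and 2.34 in Exo and 2.47, 1.81 and 1.30 in pLV-Exo-Wnt5a. The Exo ratios lay above all Con ratios, whereas pLV-Exo-Wnt5a replicate 3 fell within the Con range. Of the other CCN genes, Ccn4 had 1 to 15 counts in a library and was not tested. Ccn5 had 1 to 18 counts and passed the filter only for Exo against Con (log2FC -1.56, SE 0.89), and Ccn6 had 10 to 36 counts with a log2FC of -0.04, -0.07 and -0.12 in the order of comparisons used above.

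**Figure D3:**
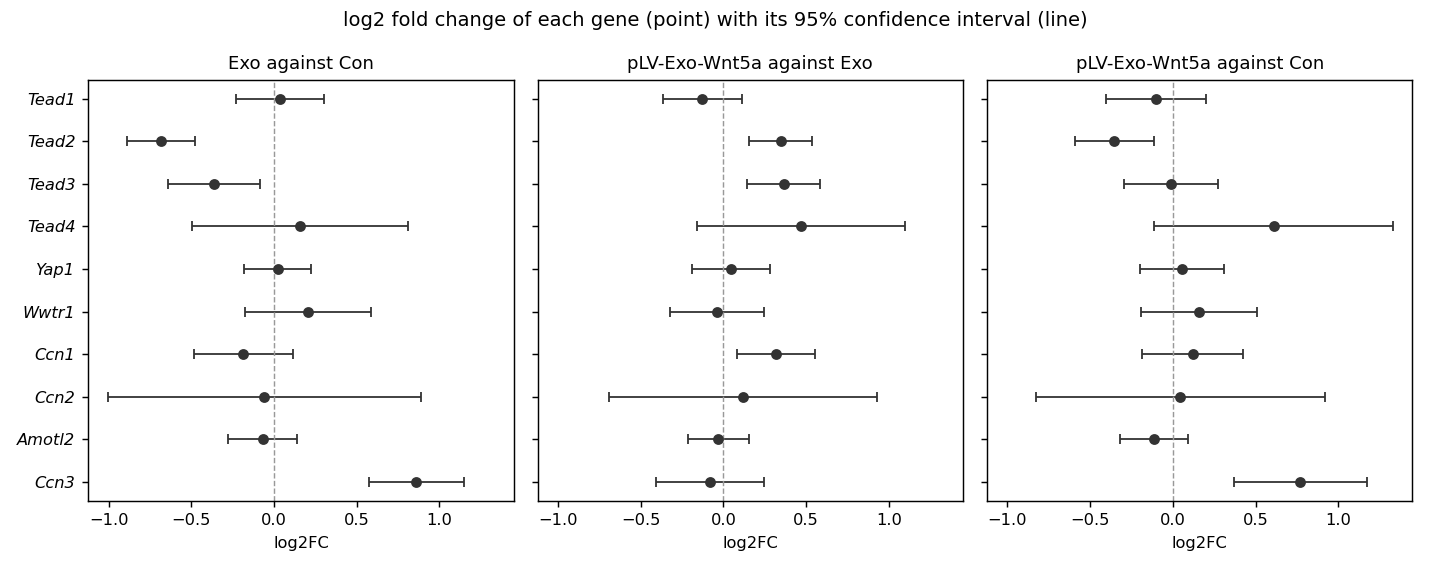
The log2FC of each gene (point) with its 95% confidence interval (line) from edgeR, with 1 panel for each comparison of groups. For Exo against Con, Tead2 lies at -0.69 and Ccn3 at 0.86, and the widest interval belongs to Ccn2, from -1.01 to 0.89.

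The 10 genes also differed in how much they varied over the 9 libraries. The ratio of the highest to the lowest library was 2.85 for Tead4, 2.51 for Ccn3, 2.33 for Ccn2, 1.81 for Wwtr1 and 1.78 for Tead2, and it lay between 1.31 for Amotl2 and 1.49 for Tead3 in the remaining genes. The median over 15458 genes was 1.53. Spread within groups gave another order: the SD of log2 CPM was 0.472 for Ccn2, 0.360 for Tead4, 0.260 for Wwtr1 and 0.254 for Ccn3 but 0.114 for Tead2, against a median of 0.176 over all these genes. Ccn2 and Tead4 had the lowest counts of the 10, and the other 8 had at least 400 counts in every library.

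Over the 9 libraries, the genes most like Ccn1 by Pearson's r of log2 CPM were Dnah17 (r = 0.98, Spearman's correlation 0.93), Arhgef17 (r = 0.97, Spearman's correlation 0.88) and Rhbdf1 (r = 0.95, Spearman's correlation 0.90). Those most like Ccn2 were Tekt1 (r = 0.94, Spearman's correlation 0.93), Srp14 (r = 0.89, Spearman's correlation 0.90) and Lsm3 (r = 0.89, Spearman's correlation 0.90). For Amotl2 they were Trap1 (r = 0.97, Spearman's correlation 0.90), Rps27l (r = 0.96, Spearman's correlation 0.88) and Mavs (r = 0.95, Spearman's correlation 1). These are the highest values among 15458 genes and rest on the same 9 libraries of 3 groups, so they are a description.

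Of 25 listed regulators of the Hippo pathway, most of which act upstream of YAP and TAZ while Vgll2, Vgll3 and Vgll4 act on TEAD factors, 24 were tested, and by edgeR 0 of 24 passed in each comparison. At an unadjusted p under 0.05, 1 was lower in Exo than in Con, 3 were higher and 3 lower in pLV-Exo-Wnt5a than in Exo, and 2 were higher and 1 lower in pLV-Exo-Wnt5a than in Con, where 14.9%, 12% and 8.35% of all genes passed. DESeq2 called 0, 1 and 0 of them in that order, against 1.37%, 2.82% and 0.524% of all genes, and their median log2FC was -0.00, 0.02 and 0.03. Mob1b, an activator of the LATS kinases, had the largest value, with 82, 83 and 90 counts in Con, 130, 120 and 127 in Exo and 67, 52 and 78 in pLV-Exo-Wnt5a. Its Exo libraries lay above all others, and the log2FC for pLV-Exo-Wnt5a against Exo was -0.91 (SE 0.22, edgeR Q = 0.114), a comparison in which DESeq2 called it. For the kinase gene Lats1 the log2FC for pLV-Exo-Wnt5a against Exo was -0.34, and for the atypical cadherin gene Fat4 it was 0.19. The cadherin gene Dchs1 had -0.26, the YAP-binding Amot 0.36 and Mob1b 0.44 for Exo against Con. Between pLV-Exo-Wnt5a and Con, the TEAD cofactor gene Vgll2 had -0.67, the scaffold gene Wwc1 0.23 and the scaffold gene Sav1 0.39.

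Downstream, 17 of 19 other genes listed as targets of YAP, TAZ and TEAD were tested, and 0 of 17 passed in edgeR in each comparison. Of these, 12 were higher and 5 lower in Exo than in Con, 7 higher and 10 lower in pLV-Exo-Wnt5a than in Exo, and 11 higher and 6 lower in pLV-Exo-Wnt5a than in Con, with medians of 0.14, -0.02 and 0.10. At an unadjusted p under 0.05 the counts were 2 higher and 0 lower, 2 higher and 1 lower, and 2 higher and 2 lower in the same order (14.9%, 12% and 8.35% of all genes), and DESeq2 called 0, 1 and 0 (1.37%, 2.82% and 0.524%). Arhgef17 came nearest to the threshold, at 136.5, 147.9 and 144.4 CPM in pLV-Exo-Wnt5a against 113.3, 111.4 and 120.3 CPM in Exo (log2FC 0.32, SE 0.06, edgeR Q = 0.0512), and DESeq2 called it. It was also among the 3 genes most like Ccn1. F3, the tissue factor gene, stood at 23.4, 25.5 and 27.4 CPM in Con, 35.1, 32.3 and 32.1 CPM in Exo and 36.1, 32.2 and 34.2 CPM in pLV-Exo-Wnt5a, so that Con lay under both other groups as in Ccn3. Its log2FC was 0.38 (SE 0.11) for Exo against Con and 0.43 (SE 0.11) for pLV-Exo-Wnt5a against Con. Myof, a membrane repair gene, had 9, 21 and 11 counts in Con, 26, 28 and 38 in Exo and 42, 42 and 53 in pLV-Exo-Wnt5a, with a log2FC of 1.64 (SE 0.43) for pLV-Exo-Wnt5a against Con. The remaining genes named by the rule were Axl (-0.21 for Exo against Con), Ccdc80 (-0.56) and Igfbp3 (0.17) for pLV-Exo-Wnt5a against Exo, and Fjx1 (-0.22) for pLV-Exo-Wnt5a against Con.

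Several YAP target genes, Ccn1 and Ccn2 among them, are also driven by the serum response factor SRF and its actin-regulated MRTF coactivators. A list of 14 genes, chosen like the others with earlier results of these data known, so that its counts are a description, held Srf, Mrtfa and Mrtfb themselves and genes known as their targets, and 13 of them were tested. In pLV-Exo-Wnt5a, 11 of 13 were higher than in Exo and 13 of 13 higher than in Con, with medians of 0.12 and 0.10, while in Exo 5 of 13 were higher and 8 lower than in Con. Over all genes tested, 7776 of 15132 were higher in pLV-Exo-Wnt5a than in Exo, 7663 of 15089 higher in pLV-Exo-Wnt5a than in Con and 7583 of 15070 higher in Exo than in Con. By edgeR, 1 of 13 passed for pLV-Exo-Wnt5a against Exo and 0 of 13 in the other comparisons, where 0.436% of all genes passed for pLV-Exo-Wnt5a against Exo, 0.00664% for Exo against Con and 0.0862% for pLV-Exo-Wnt5a against Con. DESeq2 called 1 of them for Exo against Con, 3 between pLV-Exo-Wnt5a and Exo and 2 between pLV-Exo-Wnt5a and Con, and at an unadjusted p under 0.05 in edgeR the counts were 1 higher and 1 lower, 5 higher, and 3 higher. The shares of all genes were 1.37%, 2.82% and 0.524% with DESeq2 and 14.9%, 12% and 8.35% at that p. The gene called by edgeR was Flna, which encodes the actin crosslinker filamin A, at 441.6, 447.4 and 468.8 CPM in pLV-Exo-Wnt5a against 345.8, 307.5 and 363.6 CPM in Exo (log2FC 0.43, SE 0.07, edgeR Q = 0.0246). In Con, Flna stood at 422.7, 423.6 and 398.3 CPM. Fos had a log2FC of 0.76 (edgeR Q = 0.0563) and the smooth muscle actin gene Acta2 one of 1.51 (edgeR Q = 0.102) for pLV-Exo-Wnt5a against Exo. Between pLV-Exo-Wnt5a and Con, Fos had 0.95, Egr1 0.57 and Acta2 0.91, and for Exo against Con, Egr1 had 0.46, Flna -0.29 and Cnn2 -0.38.

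**Figure D4:**
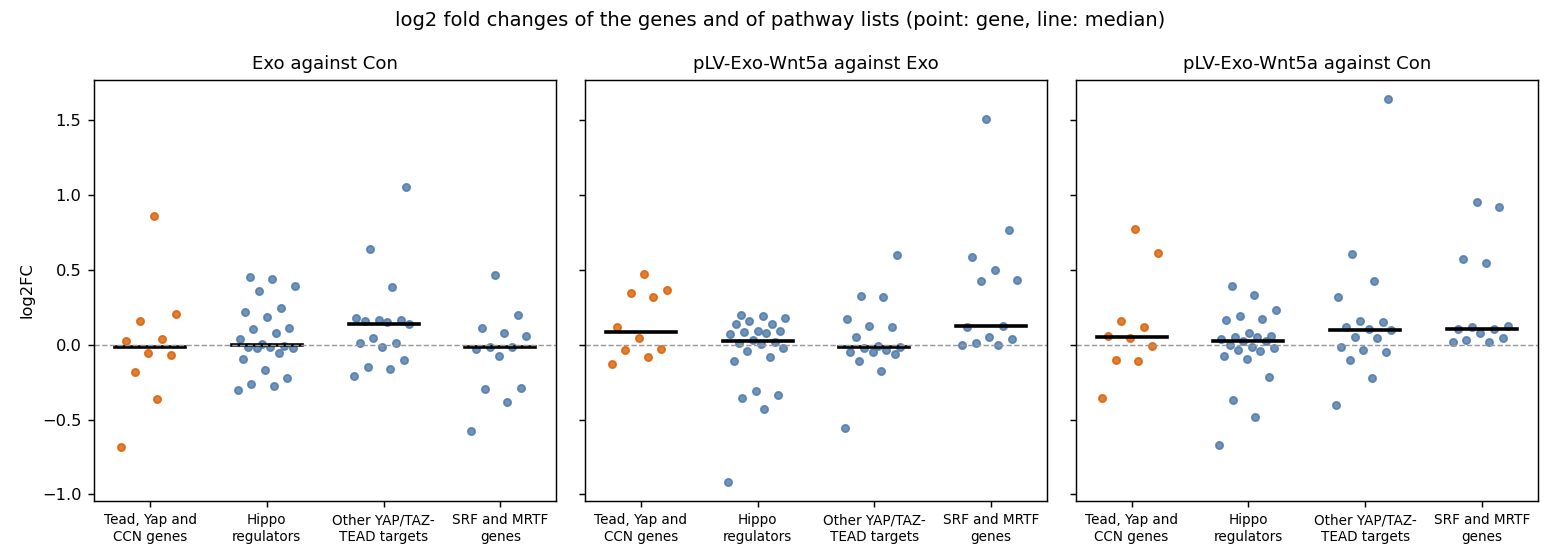
The log2FC of the 10 genes and of the tested genes of the Hippo regulator, other YAP, TAZ and TEAD target, and SRF and MRTF lists in the 3 comparisons. Each point is a gene and each line the median of its list. The median of the other targets is 0.14 for Exo against Con, and 13 of 13 SRF and MRTF genes lie above 0 for pLV-Exo-Wnt5a against Con.

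The cultures held transcripts of several cell types, and their levels differed between groups. Nes and Sox2, which mark NSCs, had at least 3106 and 15572 counts in every library. Neuron markers summed to 2758 to 2877 CPM in Con, 2726 to 3235 CPM in Exo and 2554 to 3278 CPM in pLV-Exo-Wnt5a, and of 7 markers 6 were higher in Exo than in Con, 5 at an unadjusted p under 0.05 and 0 by Q in edgeR, where 7583 of 15070 genes were higher and 14.9% passed at that p. DESeq2 called 1 of them (Snap25), against 1.37% of all genes. Con replicate 1 was not on 1 side of its group for all of them, with 3565 counts of Map2 against 5834 and 6084 in the other Con libraries, but 77066 of Tubb3 against 66879 and 54655. Of the 6 NSC markers, which summed to 2964 to 3187 CPM in Con, 2509 to 2959 CPM in Exo and 2877 to 3827 CPM in pLV-Exo-Wnt5a, 5 were lower in Exo than in Con, 3 at an unadjusted p under 0.05 (14.9% of all genes), 0 by Q in edgeR and 0 with DESeq2. For pLV-Exo-Wnt5a against Exo, edgeR called Vim (log2FC 0.62, Q = 0.0389) among the NSC markers, Dcx (-0.60, Q = 0.0113) among the neuron markers and Gfap (0.86, Q = 3.36e-05) among the astrocyte markers, which summed to 3996 to 4877 CPM in Con, 3936 to 4002 CPM in Exo and 5569 to 5898 CPM in pLV-Exo-Wnt5a. Gfap alone went from a mean of 2227 CPM in Exo to 4024 CPM in pLV-Exo-Wnt5a, while 5 of the 7 astrocyte markers were lower in pLV-Exo-Wnt5a than in Exo, 3 of them at an unadjusted p under 0.05 (12% of all genes) and 0 by Q in edgeR (0.436%), and the median log2FC of the list was -0.18. Microglia markers were low, at 7.83 to 9.62, 2.98 to 3.99 and 7.27 to 9.90 CPM in the same order of groups. Of them, 5 of 5 tested were lower in Exo than in Con and higher in pLV-Exo-Wnt5a than in Exo, as Tead2 and Tead3 were. Their median log2FC was -1.43 and 1.02, and Aif1 hardly differed (means of 0.547, 0.537 and 0.586 CPM). In each of these comparisons 3 of 5 passed at an unadjusted p under 0.05 (14.9% and 12% of all genes), 2 with DESeq2 (1.37% and 2.82%) and 0 by Q in edgeR. The defining markers P2ry12 and Tmem119 had 0 to 12 and 0 to 14 counts in a library, and C1qa had 124 to 161 in Con, 49 to 65 in Exo and 107 to 170 in pLV-Exo-Wnt5a. Markers of other cell types, such as Nes, Vim and Mbp, also had their lowest mean in Exo, while Sox2, Map2 and Dcx had their highest there. Fibroblast and mural markers, of cells that express Ccn1 and Ccn2 strongly, summed to 147.3 to 177.2, 155.3 to 163.7 and 134.1 to 146.7 CPM, but Thy1, which neurons also express, made up a mean of 130.9, 137.3 and 117.1 CPM of these sums. Of the 6 tested, 5 were higher and 1 lower in Exo than in Con (median log2FC 0.09). Against Con, 3 were higher and 3 lower in pLV-Exo-Wnt5a (median log2FC -0.01). Pdgfrb, a mural cell marker and the 1 that was lower in Exo, had a mean of 17.2 CPM in Con, 10.3 CPM in Exo and 10.8 CPM in pLV-Exo-Wnt5a. Its log2FC against Con was -0.74 in Exo and -0.67 in pLV-Exo-Wnt5a, and DESeq2 called it in both comparisons while edgeR by Q did not. Oligodendrocyte lineage markers summed to 1149 to 1262, 1031 to 1120 and 1035 to 1114 CPM, and proliferation markers to 73.0 to 84.3, 63.4 to 87.2 and 70.2 to 101.2 CPM. Endothelial markers summed to at most 7.96 CPM in any library, with Cdh5 at 0 or 1 count and Cldn5 at 0 to 4 counts. The part of these cell types in the differences of Tead2, Tead3, Ccn1 and Ccn3 was not tested.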

How the data were processed

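RNA-seq libraries labelled Con (3), Exo (3) and pLV-Exo-Wnt5a (3) were analysed from whole-number read counts per gene that the authors deposited, 1 column per library (32765138 to 40427647 counts) with 0 columns left without a sample. Per the study's methods, low-quality reads were removed and reads aligned with HISAT2, while the submitters' processing notes list Bowtie2, RSEM 1.3.1 and DESeq2 1.4.5 with no role. If RSEM made the counts, they are rounded estimates. The genome build and annotation are not given in the sources used here. Groups were taken from the sample labels.

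Counts were tested over the whole table with edgeR 4.0.16 in R 4.3.3 (filterByExpr, TMM normalisation, quasi-likelihood F-test, Benjamini-Hochberg adjustment, Q under 0.05) on the 6 libraries of each comparison. The study used DESeq2, which was run here as an alternative (version 1.42.0). The SE of a log2FC was its size divided by the square root of the F statistic. CPM used TMM-scaled library sizes, and log2 CPM for the spread and likeness values a prior count of 2. Tests were checked on simulated data. The other alternatives were RLE normalisation, no filter, at least 10 counts in every library, all 9 libraries in 1 fit, a replicate block, other thresholds and leaving out each library. DESeq2 without Con replicate 1 or 3 was chosen after seeing the data.

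The 10 genes and all lists were chosen with earlier results of these data known. Named from each list were the genes with Q under 0.05 and otherwise up to 3 per list and comparison with the smallest p, and for Ccn1, Ccn2 and Amotl2 the 3 genes with the highest r. Ankrd1 and Tek were not found by symbol in the count table, and the filter left Foxf2, Cnn1 and Vgll3 untested. The likeness search covered the genes that passed the filter over all 9 libraries.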

Additional observations from a re-analysis of the deposited data

How the results depend on the processing

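Under edgeR with Q under 0.05, 0 of the 10 genes, 0 Hippo regulators and 0 other target genes were called in each comparison. The share of all genes that passed was taken only for edgeR and DESeq2 on all 6 libraries of a comparison. Under the other settings below it was not taken, so counts under them stand without a background. For Exo against Con, 2 of the 10 genes passed with DESeq2, with no filter on low counts and at an unadjusted p under 0.05 with an absolute log2FC above 0.58 (Tead2 and Ccn3 each time), 1 passed with all 9 libraries in 1 fit (Tead2), and between 0 and 2 passed with edgeR when 1 library was left out, the 2 being Tead2 and Ccn3 without Con replicate 1 or Con replicate 3. With Con replicate 1 left out, DESeq2 called 2 of them, and with Con replicate 3 left out it called 3, the added one being Tead3. For pLV-Exo-Wnt5a against Exo, 2 passed with DESeq2 (Tead2 and Tead3) and 1 with no filter (Tead2). For pLV-Exo-Wnt5a against Con, 1 passed (Ccn3) with DESeq2, with no filter, at the looser threshold and with DESeq2 without Con replicate 1 or 3. Among the Hippo regulators 1 passed for pLV-Exo-Wnt5a against Exo with DESeq2, with no filter and at the looser threshold (Mob1b), 1 for pLV-Exo-Wnt5a against Con at the looser threshold (Vgll2), and 1 for Exo against Con with DESeq2 without Con replicate 3 (Lats1). Among the other targets 1 passed for pLV-Exo-Wnt5a against Exo with DESeq2 and with no filter (Arhgef17), and 1 for each exosome group against Con at the looser threshold (Myof) and with DESeq2 without Con replicate 3 (F3). The cause was not tested. Of 400 alternative log2FC values of the 10 genes, 34 changed sign, 0 of them in Tead2 or Ccn1 and 10 in Ccn2. All 400 moved by less than 1 SD within groups. Leaving out 1 of 3 libraries can hardly move a group mean further than that, so this limit could scarcely have been passed. The log2FC of Ccn2 for Exo against Con ran from -0.39 to 0.39 over the alternatives and stayed within it. Replicate numbers were shared between groups, but same-numbered libraries did not deviate together (r between -0.20 and 0.06 over 9 pairs), and a fit with the replicate number as a block called 0 genes in each of these counts.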

Other observations

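Beyond the genes described, the KEGG Hippo signaling pathway of the annotation deposited with the counts took in 147 further genes, a list added after the data were seen. Of these, 124 were tested between Exo and Con, 125 between pLV-Exo-Wnt5a and Exo, and 126 between pLV-Exo-Wnt5a and Con, and edgeR called 0 in each comparison. At an unadjusted p under 0.05, 13 were higher and 11 lower, 13 higher and 13 lower, and 9 higher and 6 lower in that order, where 14.9%, 12% and 8.35% of all genes passed, and DESeq2 called 3, 5 and 1 of them, against 1.37%, 2.82% and 0.524% of all genes. The median log2FC was 0.03, 0.03 and 0.05. Named here after their values were seen, Wnt5b, a Wnt ligand, stood at a mean of 22.6 CPM in pLV-Exo-Wnt5a against 14.0 CPM in Exo (log2FC 0.70, SE 0.15, edgeR Q = 0.0717), and Apc, a part of the beta-catenin destruction complex, at 29.2 against 40.8 CPM (log2FC -0.48, SE 0.10, edgeR Q = 0.0833). The Wnt receptor gene Fzd8 had a log2FC of -0.52 (SE 0.12, edgeR Q = 0.265) and Ywhaz, a 14-3-3 gene, one of 0.44 (SE 0.08, edgeR Q = 0.172) for Exo against Con.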
